A study of Mus musculus with 9 samples.

Results

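The 10 genes described here encode C-type lectin receptors of myeloid cells. They were chosen by symbol, with earlier results of these data known: Clec4e, Clec4d, Clec4n, Clec7a, Clec4a1, Clec4a2, Clec4a3, Clec5a, Clec12a and Mrc1. All 10 were found among the 46072 genes of the deposited tables, and all 10 had an adjusted p in every comparison. They were measured by RNA sequencing of splenic monocytes from female C57BL/6 mice, aged 8 to 10 weeks per the study's methods, in 9 libraries with 3 per group. Con mice received water by gavage, Van mice received the antibiotic vancomycin at 2 mg per mouse per day by gavage for 6 days, and VanLip mice received the same vancomycin and then L654, a bacterial lipid recognised through the receptor TLR2. L654 was injected behind the eye on days 7, 9 and 11 as the labels count them, and the mice used for RNA rested for 8 days after gavage per the study's text, where the labels give 6 to 8 days for the protocol. Monocytes were enriched by removing other cells, Ly-6G+ neutrophils among them, with antibody-coated beads, so that other spleen cells could remain. The methods describe combining the cells of pairs of spleens for the cytokine cultures, and give 3 mice per group for the RNA sequencing. Whether each library holds 1 mouse is not stated outright, and p-values measure the spread between these libraries.

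C-type lectin receptors are membrane proteins whose lectin fold binds sugars, lipids or altered self molecules, and on monocytes, macrophages and dendritic cells they serve as sensors of fungi, mycobacteria and damaged cells. Activating members signal through an ITAM, an activating tyrosine motif in the receptor tail or in the partner chains FcR gamma (Fcer1g) and DAP12 (Tyrobp), which recruits the kinase Syk and then the CARD9, BCL10 and MALT1 module that leads to NF-kB. Inhibitory members carry an ITIM, a tyrosine motif that recruits the phosphatases SHP-1 (Ptpn6), SHP-2 (Ptpn11) and SHIP-1 (Inpp5d).

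Of the 10 genes, 9 lie on mouse chromosome 6 (GRCm38) and Mrc1 lies on chromosome 2. A stretch of 368 kb from chr6:122921848-123289870 holds 9 genes of the Clec4 group in the order Clec4a1, Clec4a3, Clec4a4, Clec4b1, Clec4a2, Clec4b2, Clec4n, Clec4d and Clec4e, and 6 of these are among the 10. Clec4d (ENSMUSG00000030144, chr6:123262111-123275265, plus strand) and Clec4e (ENSMUSG00000030142, chr6:123281789-123289870, minus strand) run towards each other and their ends are 6523 bases apart. Clec4n (ENSMUSG00000023349) lies at chr6:123229843-123247021, Clec12a (ENSMUSG00000053063) at chr6:129342691-129365303 and Clec7a (ENSMUSG00000079293) at chr6:129461591-129472779. Clec5a (ENSMUSG00000029915) lies at chr6:40574894-40585821 and Mrc1 (ENSMUSG00000026712) at chr2:14229392-14332057.

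The 250 bases before the RefSeq start (GRCm38.p6) are shown for Clec4e, Clec4d and Clec12a, because the first 2 of these genes and Clec12a moved in opposite directions in the comparisons below. They are printed 5' to 3' on the strand of the gene, and capitals mark GAGGAA on either strand (TTCCTC where it lies on the other strand), the core letters of the purine-rich box that the myeloid factor PU.1 is known to bind. The windows are chr6:123289872-123290121 (minus strand), chr6:123261857-123262106 (plus strand) and chr6:129349994-129350243 (plus strand). The Clec12a window lies inside the annotated span of that gene given above and not before it, and so does the window searched for Clec4a2 in its own gene.
Clec4e: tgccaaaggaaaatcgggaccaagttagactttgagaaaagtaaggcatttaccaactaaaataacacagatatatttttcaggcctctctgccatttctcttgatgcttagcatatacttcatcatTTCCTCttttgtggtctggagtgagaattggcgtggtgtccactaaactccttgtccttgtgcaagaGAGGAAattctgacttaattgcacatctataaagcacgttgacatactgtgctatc
Clec4d: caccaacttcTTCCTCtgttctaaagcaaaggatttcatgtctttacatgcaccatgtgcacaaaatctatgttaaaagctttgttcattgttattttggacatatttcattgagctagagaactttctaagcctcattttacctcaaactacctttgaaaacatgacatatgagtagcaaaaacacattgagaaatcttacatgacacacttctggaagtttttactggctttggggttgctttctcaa
Clec12a: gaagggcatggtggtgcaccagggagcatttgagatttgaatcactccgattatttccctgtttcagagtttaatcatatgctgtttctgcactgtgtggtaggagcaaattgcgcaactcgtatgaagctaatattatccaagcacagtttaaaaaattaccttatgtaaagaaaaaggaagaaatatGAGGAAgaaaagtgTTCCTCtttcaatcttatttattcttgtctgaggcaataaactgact
RefSeq promoter entries matched 9 of the 10 genes. GAGGAA was found on either strand in 8 of these 9 genes and in 9 of their 11 promoter windows (81.8%), against 23.3% of all 32851 promoter windows of the same length. Clec4a2 was the 1 gene of the 9 without it, and both directions of response occurred among genes that held it. The other letters searched were TTGCNNAA (2 of the 9 genes, 9.6% of all windows), TGANTCA (1 gene, 6.7%), TTCNNGAA (1 gene, 7.2%), TATAAA (3 genes, 12.4%), the interferon-stimulated response element (no gene, 3.0%) and the NF-kB consensus (no gene, 3.9%). A match of letters is a description of the window and does not show a bound site.

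Total counts were 43070361 to 59339748 in Con libraries, 50210853 to 61383806 in Van libraries and 170503470 to 184720704 in VanLip libraries. Among low counts the most frequent value was 1.33 in Con and Van libraries and 2.00 in those of VanLip. If 1 read is scaled by the 75 bases that tximport assumes by default, these values are the sizes of reads of 100 and 150 bases, whereas the series' design text gives reads of 100 bases for all libraries. In every comparison with VanLip, the treatment cannot be told apart from depth or from this difference in read size. Normalized counts are the deposited counts divided by a size factor of each library, and serve to compare 1 gene between libraries. FPKM, a fragment count divided by transcript length and by the mapped depth, serves to compare levels between genes.

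Per unit length, the 3 most abundant receptor genes in every group were Clec7a, Clec4a3 and Clec4a1, and the 2 least abundant were Clec4d and Clec5a. Clec7a, which encodes the beta-glucan receptor Dectin-1, had a mean FPKM (± SD, n = 3) of 246.1 ± 24.8 in Con, of 197.5 ± 14.2 in Van and of 239.0 ± 27.8 in VanLip. Clec4a3 and Clec4a1, close relatives of the inhibitory receptor DCIR, had 224.0 ± 16.7 and 202.8 ± 14.5 FPKM in Con (SD, n = 3). In Con, the library ranges of Clec7a and Clec4a3 overlapped, as did those of Clec4a3 and Clec4a1, so these neighbours in the order were not separated.

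In Con, the genes below these were Clec12a at 85.9 ± 1.39 FPKM, Clec4n at 55.1 ± 6.59, Mrc1 at 49.1 ± 3.45, Clec4e at 41.9 ± 4.24, Clec4a2 at 26.9 ± 2.70, Clec4d at 7.33 ± 0.244 and Clec5a at 5.22 ± 1.25 (SD, n = 3). The ranges of Clec4n and Mrc1, and of Mrc1 and Clec4e, overlapped, and the other neighbours below Clec4a1 did not overlap. In Van the mean FPKM was 275.5 for Clec4a3 and 240.5 for Clec4a1, both above Clec7a with no overlap. Clec4e stood at 67.2 ± 8.75 FPKM in Van and 31.7 ± 8.43 in VanLip (SD, n = 3), which placed it sixth in Van and eighth in VanLip. In Van its range overlapped those of Clec12a and Mrc1 beside it, and in VanLip it overlapped that of Clec4a2.

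**Figure D1:**
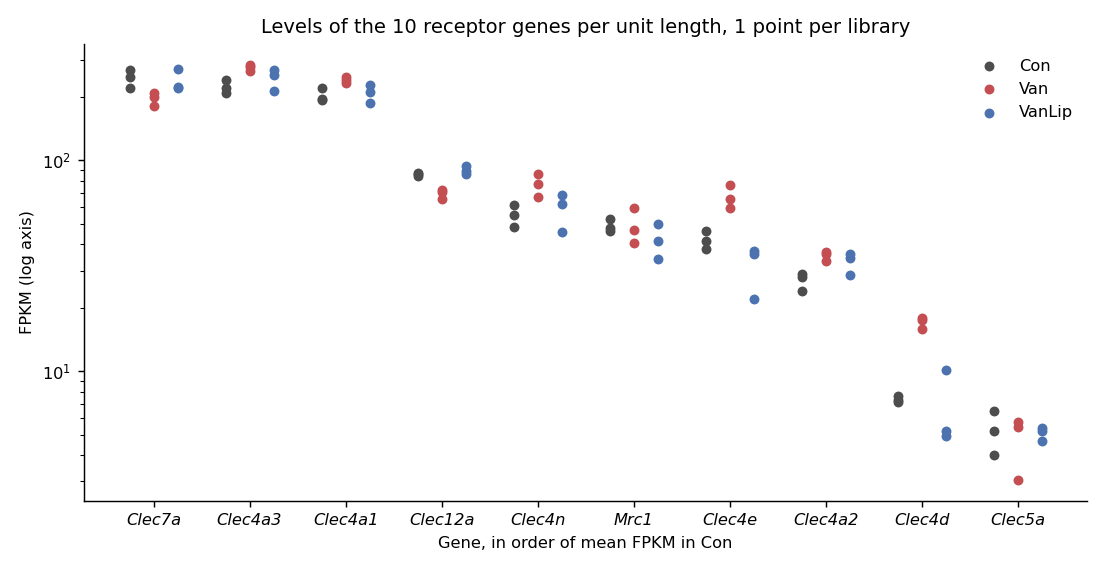
FPKM of the 10 receptor genes on a log axis, 1 point per library, with genes in order of their mean in Con and colours for Con, Van and VanLip. Clec7a, Clec4a3 and Clec4a1 lie highest, Clec4d and Clec5a lowest, and the Van points of Clec4d lie above the other 6 points of that gene.

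The order depended on how length was handled: by normalized counts per kilobase of annotated transcript, 4 of the 10 genes kept their place in Con, 8 in Van and 6 in VanLip. The transcript length implied by count and FPKM varied between libraries by 12.4% (coefficient of variation) for Clec5a, 9.06% for Clec4a2 and 4.64% for Clec4e, against 1.03% for the median gene. For Clec5a and Clec4a2, FPKM and counts can therefore move differently between libraries. Summed over the 10 genes, the receptors made up 0.226% to 0.252% of all FPKM in Con, 0.251% to 0.271% in Van and 0.240% to 0.247% in VanLip. A second gene identifier with the symbol Clec7a (ENSMUSG00000102040) held 0.0119 to 0.440 FPKM in Con and Van and 0.846 to 1.69 in VanLip, and was not used.

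The first comparison asked how the receptors differed after vancomycin. Clec4e, Clec4d and Clec4n, the 3 members known to pair with FcR gamma, were higher in Van than in Con, and Clec12a, an inhibitory receptor, was lower. These were 4 of 10 genes (3 higher, 1 lower) called by DESeq2 with Benjamini-Hochberg adjustment (adjusted p no higher than 0.05), where 4.34% of the 18516 genes with an adjusted p were called (2.27% higher and 2.06% lower). The estimate was above 0 for 7 of the 10 genes and below 0 for 3, with a median log2 fold change of 0.26 against -0.01 over all genes tested. Van and Con libraries did not overlap in normalized count for 7 of the 10 genes (5 higher, 2 lower), against 24.1% (12.7% higher and 11.4% lower) of the 13503 genes that averaged 50 normalized counts or more. Because the genes were chosen with earlier results of these data known, their shares here and below are a description and not a test. In bulk samples, fewer cells of a type and less RNA per cell cannot be told apart.

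Clec4d, which encodes MCL, the partner that helps bring Mincle to the cell surface, had the largest change of the 10 genes. Its normalized counts were 940.3, 978.0 and 898.2 in Con and 2049, 2228 and 2238 in Van. All Van libraries lay above all Con libraries, by 2.31-fold (log2 fold change 1.21, SE 0.23, 95% interval 0.75 to 1.66, DESeq2 adjusted p = 4.26e-05). Clec4e, which encodes Mincle, the receptor for mycobacterial cord factor and a protein of dying cells, had normalized counts of 11621, 11420 and 13997 in Con and 22636, 18029 and 16920 in Van. The groups did not overlap, and Clec4e was 1.55-fold higher in Van (log2 fold change 0.64, SE 0.18, 95% interval 0.29 to 0.98, DESeq2 adjusted p = 0.0123). The Van 1 library was the highest, and without it the call was lost.

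Clec4n encodes Dectin-2, a receptor for mannose-rich fungal walls, and had normalized counts of 5718, 6472 and 7050 in Con and 8096, 9779 and 8963 in Van. Its libraries did not overlap, and it was 1.39-fold higher in Van (log2 fold change 0.48, SE 0.14, DESeq2 adjusted p = 0.0226). Clec12a encodes MICL, an ITIM receptor for uric acid crystals of dead cells, and had normalized counts of 18348, 17811 and 17931 in Con and 14001, 14729 and 15381 in Van. Every Van library lay below every Con library, and the Van level was 0.815 times that of Con (log2 fold change -0.29, SE 0.06, DESeq2 adjusted p = 4.71e-04).

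The calls of Clec4d and Clec12a were lost in 3 of 22 alternatives, all of them tests of FPKM with limma, which called 0 of the 10 genes and left 8 at an unadjusted p under 0.05. Clec4e also lost its call with edgeR and without Con 1, Con 2 or Van 1, and Clec4n lost its call with edgeR and without Con 1, Con 2, Van 2 or Van 3.

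**Figure D2:**
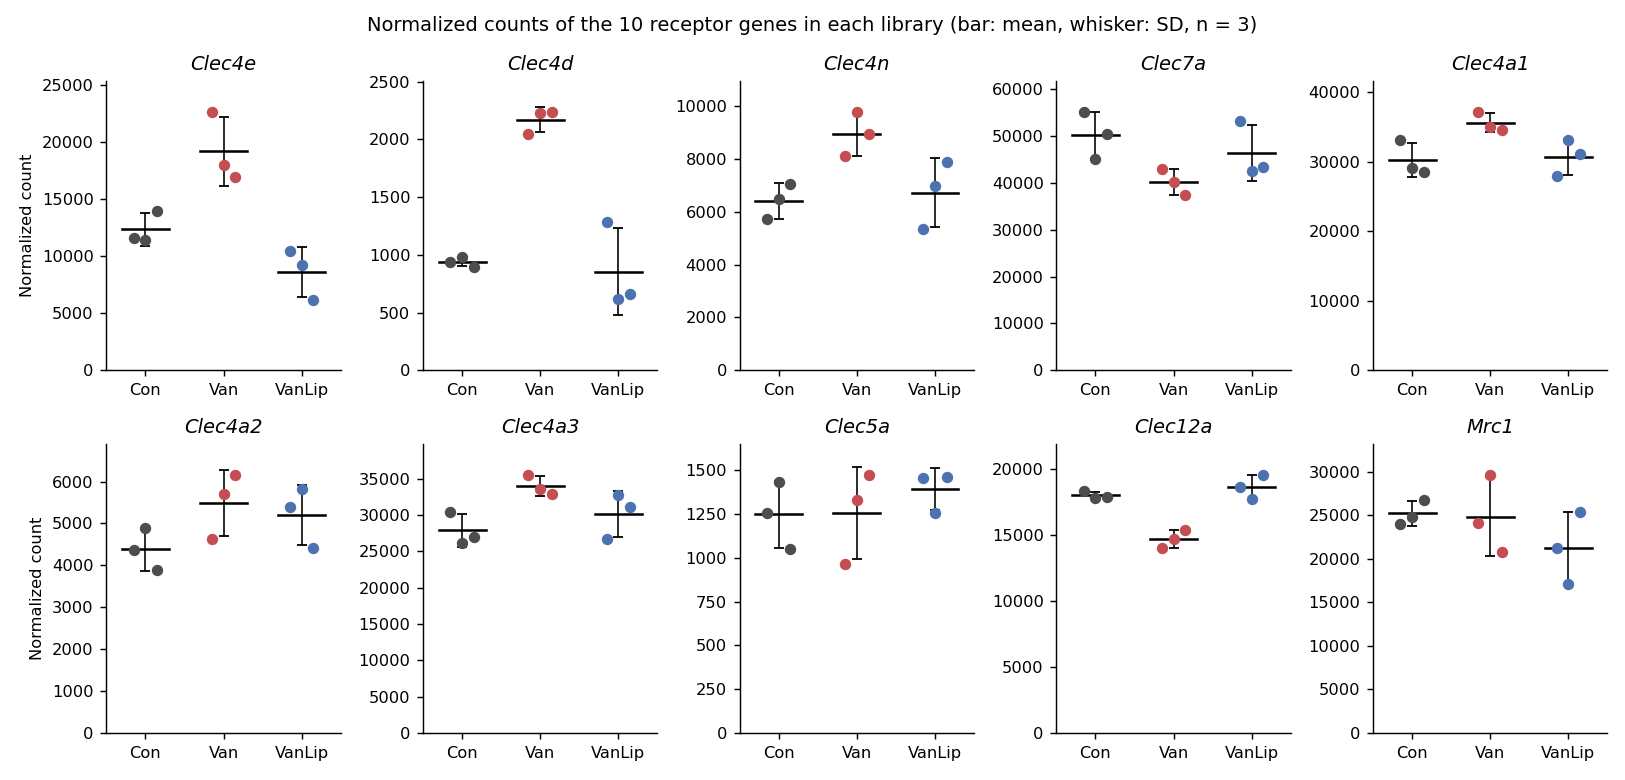
Normalized counts of the 10 receptor genes in each library, 1 panel per gene with axes from 0, points for the 3 libraries of Con, Van and VanLip, a bar at the mean and a whisker for the SD. In Clec4d, Clec4e and Clec4n the Van points lie above every Con point, in Clec12a they lie below, and in Clec5a and Mrc1 the groups overlap.

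The other 6 genes did not pass the test for Van against Con. Clec7a had normalized counts of 55156, 45128 and 50372 in Con and 43075, 40117 and 37396 in Van, with the Van libraries lowest and no overlap (log2 fold change -0.32, SE 0.11, DESeq2 adjusted p = 0.0703). Clec4a3 had 30429, 26210 and 27021 in Con and 35568, 33631 and 32858 in Van, again without overlap (log2 fold change 0.29, SE 0.09, DESeq2 adjusted p = 0.0527). Clec7a passed the threshold in 6 of 21 alternatives and Clec4a3 in 8 of 22, so that these genes lay close to it. The annotation classes Clec7a as a polymorphic pseudogene, which left it out of the alternative on protein-coding genes.

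Clec4a1 (ENSMUSG00000049037, chr6:122921848-122934619) had normalized counts of 33091, 29146 and 28611 in Con and 37180, 35077 and 34593 in Van, with no overlap (log2 fold change 0.23, SE 0.09, DESeq2 adjusted p = 0.109). Clec4a2 (ENSMUSG00000030148), which encodes DCIR, had 4371, 4894 and 3879 in Con and 4632, 5698 and 6164 in Van, which overlapped (log2 fold change 0.33, SE 0.14, DESeq2 adjusted p = 0.200). Of the transcript sequence of Clec4a2, 2.14% of 100-base windows were shared with another gene, Clec4a4, while no such window of the other 9 genes was shared. Clec4a2 also overlaps the processed pseudogene Gm44132, so its counts are less certain.

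Clec5a encodes MDL-1, a DAP12-coupled receptor, and had normalized counts of 1257, 1433 and 1050 in Con and 965.2, 1327 and 1474 in Van. Mrc1 encodes the mannose receptor CD206, an endocytic receptor of macrophages, and had 24049, 24828 and 26826 in Con and 24144, 29689 and 20788 in Van. Both overlapped between groups, with 95% intervals of the log2 fold change from -0.33 to 0.34 for Clec5a and from -0.32 to 0.27 for Mrc1. Changes within these intervals, either way, are therefore not excluded.

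The second comparison asked how VanLip differed from Van. Clec4e, Clec4d and Clec4n were lower in VanLip than in Van and Clec12a was higher, the opposite directions to those of Van against Con. Both comparisons share the Van libraries, so each is given with its own values and the opposite signs are not independent. By DESeq2, 4 of the 10 genes were called (1 higher, 3 lower), against 9.86% of 18025 genes (4.58% higher and 5.28% lower). The median log2 fold change of the 10 genes was -0.19, against 0.01 over all genes tested. VanLip and Van did not overlap in normalized count for 6 of the 10 genes (1 higher, 5 lower), against 28.6% of 13503 genes (14.1% higher and 14.4% lower). By FPKM this differed for some genes: Clec4n and Clec4a3 overlapped, and every VanLip library of Clec7a lay above every Van library.

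The VanLip libraries held 1289, 615.8 and 659.3 normalized counts of Clec4d, all below the Van libraries. The log2 fold change for VanLip against Van was -1.35 (SE 0.23, 95% interval -1.80 to -0.89, DESeq2 adjusted p = 4.85e-07), a level 0.394 times that of Van. The VanLip 1 library stood above the other VanLip libraries and above all Con libraries, and without it the log2 fold change was -1.77. For Clec4e the VanLip libraries held 10493, 9196 and 6159, below every Van and every Con library. The level was 0.449 times that of Van (log2 fold change -1.16, SE 0.18, 95% interval -1.50 to -0.81, DESeq2 adjusted p = 6.64e-09).

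Clec12a had normalized counts of 18630, 17786 and 19599 in VanLip, all above the Van libraries, and was 1.27-fold higher (log2 fold change 0.34, SE 0.06, DESeq2 adjusted p = 4.50e-06). Clec4n had 5333, 6967 and 7886 in VanLip, all below Van, at 0.752 times the Van level (log2 fold change -0.41, SE 0.14, DESeq2 adjusted p = 0.0402). The calls of Clec4e, Clec4d and Clec12a held in all 22 alternatives, including the thinning of the VanLip libraries to the depth of the others, while the call of Clec4n was lost in 12 of 22.

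**Figure D3:**
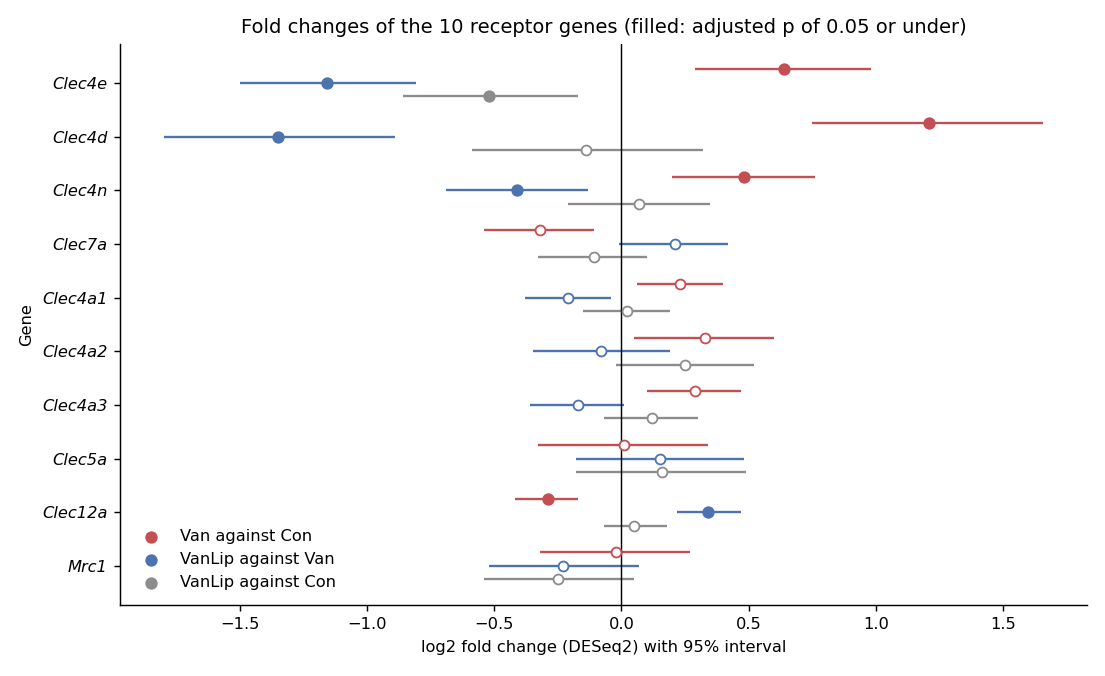
Log2 fold changes of the 10 receptor genes with 95% intervals for Van against Con, VanLip against Van and VanLip against Con; filled points have an adjusted p no higher than 0.05. Clec4d lies at 1.21 and -1.35 and Clec4e at 0.64 and -1.16 in the first 2 comparisons, and Clec12a lies at -0.29 and 0.34.

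The other 6 genes did not pass the test for VanLip against Van. Clec4a1 had normalized counts of 27968, 33079 and 31121 in VanLip (log2 fold change -0.21, DESeq2 adjusted p = 0.102) and Clec4a3 had 26677, 32755 and 31178 (log2 fold change -0.17, DESeq2 adjusted p = 0.287). In both, every VanLip library lay below every Van library. Clec7a had 53332, 42580 and 43342 in VanLip (log2 fold change 0.21, DESeq2 adjusted p = 0.264), which overlapped Van. The VanLip counts were 5400, 5814 and 4417 for Clec4a2, 1457, 1254 and 1461 for Clec5a and 21261, 17164 and 25384 for Mrc1. The log2 fold changes of these 3 genes were -0.08, 0.15 and -0.23, and their libraries overlapped those of Van.

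The third comparison set VanLip against Con, where 6.67% of 16552 genes were called (2.98% higher and 3.69% lower). Of the 10 receptor genes 1, Clec4e, was called and it was lower in VanLip, at 0.698 times the Con level (log2 fold change -0.52, SE 0.18, 95% interval -0.86 to -0.17, DESeq2 adjusted p = 0.0489). This call lay at the threshold and was lost in 17 of 22 alternatives, with an adjusted p between 0.00207 and 0.329. Clec4e was also the 1 gene of 10 whose VanLip and Con libraries did not overlap, against 24.5% of 13503 genes (13.1% higher and 11.3% lower).

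The log2 fold change of VanLip against Con was -0.14 for Clec4d (95% interval -0.59 to 0.32), 0.07 for Clec4n (95% interval -0.21 to 0.35) and 0.05 for Clec12a (95% interval -0.07 to 0.18). For Clec4d the result rested on the VanLip 1 library: without it the log2 fold change was -0.56 and the adjusted p was 5.26e-05. The remaining 6 genes lay between -0.25 for Mrc1 and 0.25 for Clec4a2, with a median of 0.04 over all 10 genes.

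Ratios between receptors within a library do not depend on the size factors. The FPKM ratio of Clec4e to Clec12a was 0.450 to 0.534 in Con, 0.820 to 1.17 in Van and 0.233 to 0.417 in VanLip, with no overlap between any groups. Both genes were already called in opposite directions in these libraries, so this ratio restates those calls and is not separate support. The ratio of Clec4d to Clec4e was 0.154 to 0.200 in Con, 0.208 to 0.296 in Van and 0.137 to 0.272 in VanLip. The ratio of Clec4a1 to Clec4a3 was 0.883 to 0.928 in Con, 0.870 to 0.878 in Van and 0.833 to 0.874 in VanLip, so the Con libraries lay above the others.

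Along the chromosome 6 cluster, the 3 genes at its Clec4e end had the largest changes in both comparisons with Van. For Van against Con, the log2 fold changes were 0.23 for Clec4a1, 0.29 for Clec4a3, -0.16 for Clec4a4, 0.28 for Clec4b1 and 0.33 for Clec4a2, none of which passed the test, and then 0.48, 1.21 and 0.64 for Clec4n, Clec4d and Clec4e. For VanLip against Van, the values in the same order were -0.21, -0.17, -0.22, -0.33 and -0.08, again not passing the test, and then -0.41, -1.35 and -1.16. Clec4b2 was at or below 0.114 FPKM in every library and is given no fold change.

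**Figure D4:**
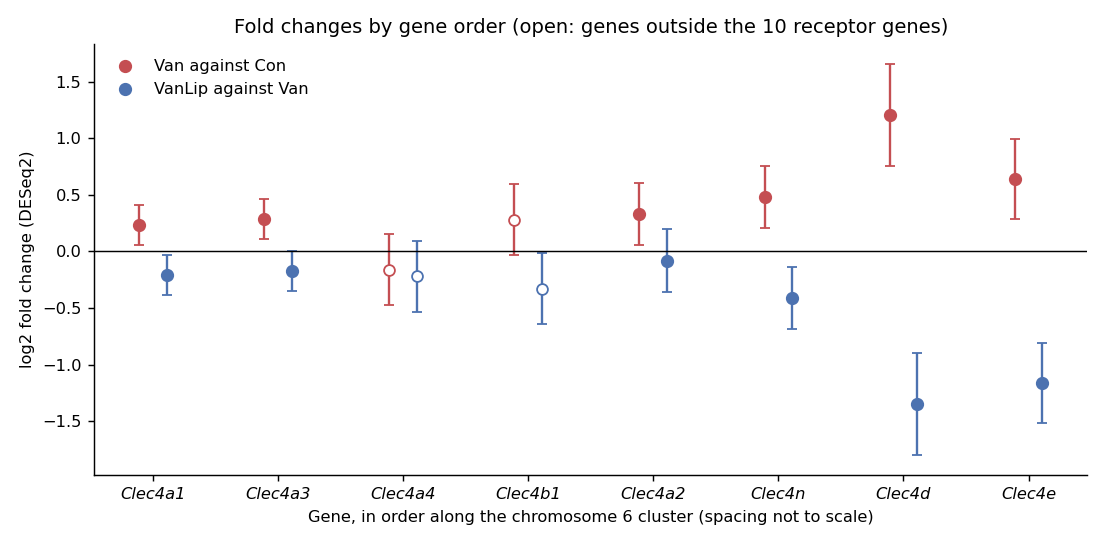
Log2 fold changes with 95% intervals for Van against Con and VanLip against Van of 8 genes in their order along the chromosome 6 cluster, with equal spacing; open points are Clec4a4 and Clec4b1, which are not among the 10 genes. The points of Clec4n, Clec4d and Clec4e on the right lie farthest from 0 in both comparisons.

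The genes whose pattern over the 9 libraries was most like each called receptor were found by Pearson's r of log2(normalized count + 1) among 13503 genes, as a description. For Clec4e they were Golph3 (r = 0.967), Mef2d (0.961) and Rgcc (0.959), and for Clec4d they were Tmem33 (0.967), Ankrd11 (0.959) and Sorl1 (0.953). For Clec4n they were Set (0.969), Prosc (0.962) and Txnl4a (0.958), and for Clec12a they were Zc3h6 (0.971), I830077J02Rik (0.970) and Yod1 (0.961). Clec4d stood at place 187 for Clec4e with r = 0.852, and the r of Clec12a with Clec4e was -0.905. The libraries share the group differences in depth and treatment, which such an r includes.

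Signalling genes behind the receptors were described with a list of 26 genes: 14 ITAM adaptors and kinases, 9 genes of the CARD9 module and 3 phosphatases of ITIM receptors. Syk and Pik3r1, a regulatory subunit of PI3-kinase, were higher in Van than in Con and lower in VanLip than in Van. In Van relative to Con 2 of 26 genes were called (both higher, median log2 fold change 0.01), against 4.34% of all genes. In VanLip relative to Van 6 of 26 were called (3 higher, 3 lower, median 0.06), against 9.86% of all genes. For VanLip relative to Con 2 of 26 were called (both higher, median 0.08), against 6.67% of all genes, so this last count lay near the share of all genes.

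Syk had normalized counts of 53661, 58797 and 55662 in Con, 77740, 72632 and 68861 in Van and 58038, 45011 and 51039 in VanLip. All Van libraries lay above all others, with a log2 fold change of 0.38 for Van against Con (SE 0.10, DESeq2 adjusted p = 0.00519) and -0.51 for VanLip against Van (SE 0.10, DESeq2 adjusted p = 1.20e-05). The Syk call for Van against Con was lost in 5 of 22 alternatives, namely with edgeR, in the 3 limma settings and without Con 1. Pik3r1 had 7794, 7724 and 8294 in Con, 10564, 9891 and 9950 in Van and 6776, 7260 and 8011 in VanLip, and its Van libraries were also the highest. Pik3r1 stood 0.35 higher on the log2 scale in Van than in Con (DESeq2 adjusted p = 8.99e-04), and its VanLip against Van value was -0.46 (DESeq2 adjusted p = 4.45e-07). The first of these Pik3r1 calls was lost in the 3 limma settings.

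Of the 3 phosphatase genes, 2 were higher in VanLip than in Van. Ptpn6 (SHP-1) had normalized counts of 48520, 48482 and 51716 in Con, 44725, 44839 and 44847 in Van and 55267, 63648 and 63329 in VanLip. The VanLip libraries were the highest, at a log2 fold change of 0.44 against Van (DESeq2 adjusted p = 6.61e-08) and 0.29 against Con (DESeq2 adjusted p = 0.00176), while Van against Con was -0.15 (DESeq2 adjusted p = 0.298). The Ptpn6 call against Con was lost in 4 of 22 alternatives, with edgeR and in the 3 limma settings. Ptpn11 (SHP-2) had 12978, 12678 and 13876 in Con, 12100, 11367 and 10373 in Van and 14314, 15984 and 15895 in VanLip. It was higher in VanLip than in Van (log2 fold change 0.45, DESeq2 adjusted p = 3.33e-06) and did not pass the test against Con (log2 fold change 0.22, DESeq2 adjusted p = 0.0750). The third gene of this list, Inpp5d, was not called in any comparison.

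Tab1, a partner of the kinase TAK1 downstream of CARD9, was higher in VanLip than in Van (log2 fold change 0.41, DESeq2 adjusted p = 3.36e-04) and than in Con (log2 fold change 0.33, DESeq2 adjusted p = 0.0110), and the call against Con was lost in 9 of 22 alternatives. Lyn, a Src-family kinase, was lower in VanLip than in Van (log2 fold change -0.17, DESeq2 adjusted p = 0.0137), a call lost in 10 of 22 alternatives. The adaptor genes Fcer1g and Tyrobp and the genes Card9, Bcl10 and Malt1 were not called in any comparison. Fcer1g, the chain used by Clec4e, Clec4d and Clec4n, had a log2 fold change of 0.07 for Van against Con, 0.11 in VanLip relative to Con and 0.04 in VanLip relative to Van.

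**Figure D5:**
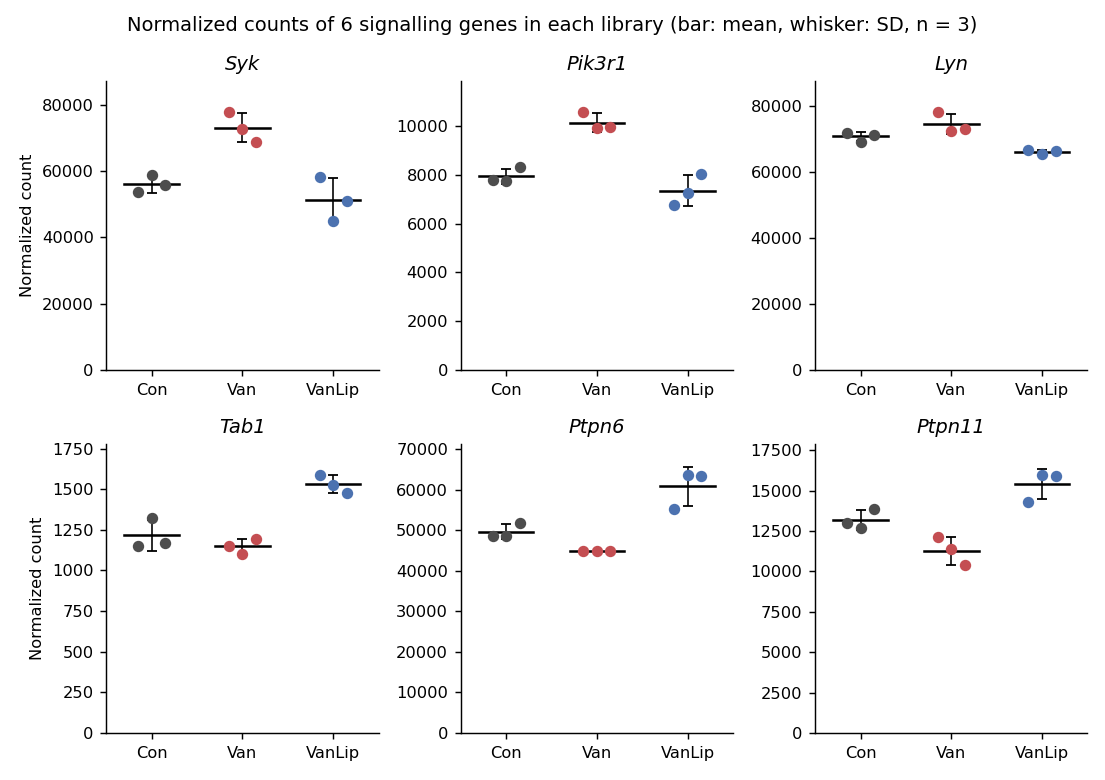
Normalized counts of 6 signalling genes in each library with axes from 0, points for the 3 libraries of Con, Van and VanLip, a bar at the mean and a whisker for the SD. The Van points lie highest for Syk and Pik3r1, and the VanLip points lie highest for Ptpn6, Ptpn11 and Tab1.

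Among 27 other C-type lectin receptor genes, 26 were tested, and 23, 22 and 22 had an adjusted p for Van against Con, VanLip against Con and VanLip against Van. Called were 1 of 23 (4.34% of all genes), 4 of 22 (6.67% of all genes) and 2 of 22 (9.86% of all genes), so the first and the last counts lay near the share of all genes. Clec9a, a receptor of cross-presenting dendritic cells for the actin of dead cells, had normalized counts of 923.4, 703.1 and 807.3 in Con, 400.0, 334.2 and 384.1 in Van and 749.8, 440.1 and 591.2 in VanLip. It was lowest in Van (log2 fold change -1.12, DESeq2 adjusted p = 1.55e-05) and higher in VanLip than in Van (log2 fold change 0.67, DESeq2 adjusted p = 0.0164). The first of these calls was lost in 3 of 22 alternatives, all with limma, and the second in 6 of 22, with edgeR, with limma and without Van 2 or VanLip 1. Clec2i had 8089, 8783 and 7724 in Con, 6341, 6745 and 6120 in Van and 10011, 14154 and 13652 in VanLip, the highest group. Its log2 fold change was 0.62 against Con (DESeq2 adjusted p = 6.38e-05) and 0.98 against Van (DESeq2 adjusted p = 1.32e-12). Mgl2, Cd209a and the activation marker Cd69 fell in VanLip relative to Con, with log2 fold changes of -1.42, -0.73 and -0.59 (DESeq2 adjusted p = 2.82e-04, 0.0280 and 0.0348). Against Con, the calls of Clec2i and Mgl2 were each lost in 3 of 22 alternatives, all with limma, those of Cd209a and Cd69 were each lost in 12 of 22, and the Cd209a libraries of the groups overlapped.

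Markers of the labelled cells and of other spleen cells were read in the same libraries, as FPKM summed over each list. Classical monocyte markers summed to 875.4 to 1127 in Con, 783.5 to 1412 in Van and 1161 to 1871 in VanLip, and nonclassical monocyte markers to 2250 to 2584, 2209 to 2981 and 2188 to 2895, so markers of both kinds of monocyte were detected. Of the 6 classical markers, 2 were called for Van against Con (1 higher, 1 lower), none for VanLip against Con (1 at an unadjusted p under 0.05) and 2 for VanLip against Van (both higher). Ccr2, the chemokine receptor of classical monocytes, was lower in Van than in Con (log2 fold change -0.83, DESeq2 adjusted p = 4.80e-04) and higher in VanLip than in Van (log2 fold change 1.04, DESeq2 adjusted p = 7.38e-07), the same directions as Clec12a. Ly6c2 had -0.34 (DESeq2 adjusted p = 0.110) and 0.39 (DESeq2 adjusted p = 0.0262), while Vcan was higher in Van than in Con (log2 fold change 1.54, DESeq2 adjusted p = 0.0122) and had -0.41 for VanLip against Van (DESeq2 adjusted p = 0.667), the opposite signs. Of the 7 nonclassical markers, 2 were called, both higher in VanLip than in Van, as Clec12a was: Cx3cr1 (log2 fold change 0.43, DESeq2 adjusted p = 0.00264) and Eno3 (log2 fold change 0.60, DESeq2 adjusted p = 0.0247). The other 5 were not called, at 0.31 for Spn, 0.04 for Treml4, -0.04 for Cd300e, -0.07 for Ace and -0.16 for Nr4a1, and the median of the list was 0.04. No nonclassical marker was called by DESeq2 in Van or in VanLip relative to Con (2 at an unadjusted p under 0.05 in each). Several of these calls depended on the setting: of 22 alternatives, Ccr2 lost its call for Van against Con in 6 and Vcan in 8, and for VanLip against Van Ly6c2 lost its call in 9, Eno3 in 10 and Cx3cr1 in 3.

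Red pulp macrophage markers summed to 1479 to 1809 in Con, 1735 to 2336 in Van and 1468 to 1898 in VanLip, and 1 of 8 genes was called in each comparison with Van. That gene, Vcam1, was higher in Van than in Con (log2 fold change 0.46, DESeq2 adjusted p = 0.0106) and lower in VanLip than in Van (log2 fold change -0.50, DESeq2 adjusted p = 0.00176), the same directions as Clec4e, Clec4d and Clec4n. The other 7 genes were not called, from 0.07 for Spic to 0.33 for C1qb in Van relative to Con and from -0.34 for C1qb to 0.07 for Cd5l in VanLip relative to Van. These calls of Vcam1 were lost in 7 and 3 of 22 alternatives. The part of these cell markers in the receptor results was not tested. Neutrophils, which the isolation was designed to remove through Ly-6G, are known to express Clec4e and Clec4d. The neutrophil list of 9 genes summed to 21.8 to 25.3 FPKM in Con, 13.6 to 33.6 in Van and 20.7 to 37.2 in VanLip, with Ly6g listed at 0 in all 9 libraries and S100a8 at 4.86 FPKM or below. Mmp8 was the largest part of this sum in each library, at 10.5 to 20.5 FPKM in Con, 11.5 to 30.5 in Van and 14.8 to 33.8 in VanLip, while S100a9 lay at 1.20 to 5.87, 0.491 to 3.82 and 0.832 to 1.70. Of the 8 neutrophil genes tested, Retnlg was called lower in Van than in Con (log2 fold change -2.60, DESeq2 adjusted p = 0.0224) and Ngp lower in VanLip than in Con (log2 fold change -1.94, DESeq2 adjusted p = 0.0373), calls lost in 6 of 15 and 11 of 21 alternatives that gave an adjusted p. No gene of the list was called by DESeq2 between VanLip and Van (1 at an unadjusted p under 0.05).

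Erythroid markers summed to 99.6 to 202.5 FPKM in Con, 342.6 to 771.5 in Van and 278.4 to 1162 in VanLip, with 5 of 6 genes higher in Van than in Con, 6 of 6 higher in VanLip than in Con and 0 of 6 called by DESeq2 between VanLip and Van, also 0 of 6 at an unadjusted p under 0.05. For Van against Con 0 of 6 were called with edgeR, in the 3 limma settings and without Con 1, Con 3 or Van 2. For VanLip against Con the 6 fell to 0 in the limma settings with pseudocounts of 1 and 0.1 and to 3 in the limma setting with a filter on mean FPKM. B cell markers summed to 327.0 to 383.2, 242.0 to 269.1 and 248.2 to 309.8, and 1 of 5 genes, Ighm, was called lower than Con in each of Van and VanLip, calls lost in 3 and 6 of 21 alternatives. Markers of conventional dendritic cells summed to 10.6 to 12.1 FPKM in Con, at most 13.3 in Van, with every Van library above Con, and 12.0 to 17.0 in VanLip. Of these 4 genes Xcr1 was called, lower in Van (log2 fold change -0.85, DESeq2 adjusted p = 0.00897) and in VanLip (log2 fold change -0.73, DESeq2 adjusted p = 0.0182) than in Con, and these calls were lost in 7 of 20 and 10 of 21 alternatives. The other genes were not called, with values for Van against Con of 0.25 for Flt3, 0.42 for Esam and -0.18 for Zbtb46 (DESeq2 adjusted p = 0.608, 0.356 and 0.787), and 0 of 4 were called by DESeq2 between VanLip and Van (0 also at an unadjusted p under 0.05). So of this list Xcr1 moved as Clec9a did for Van against Con, while the summed level was higher in Van. Flt3, which was not called, was the largest part of this sum in each library, at 7.23 to 8.81 FPKM in Con and 9.11 to 10.3 in Van. Markers of plasmacytoid dendritic cells summed to 6.38 to 9.81, 6.26 to 9.31 and 4.61 to 14.0 FPKM, which overlapped. Of these 4 genes Siglech was called, lower in Van than in Con (log2 fold change -0.89, DESeq2 adjusted p = 0.0474) and higher in VanLip than in Van (log2 fold change 0.85, DESeq2 adjusted p = 0.0299), calls lost in 14 of 21 and 12 of 22 alternatives. For Van against Con and VanLip against Van, the genes not called had 0.37 and -0.33 for Cox6a2, 0.11 and 0.05 for Klk1 and -0.64 and 0.55 for Ccr9. The part of dendritic cells in these results was not tested. The sums were at most 15.9 FPKM for T cells, 22.2 for platelets, 2.13 for eosinophils, 0.819 for NK cells and 0.511 for basophils.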

How the data were processed

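RNA of splenic monocytes was sequenced from a stranded library of polyadenylated RNA. Per the submitters' processing notes and the study's methods, the authors aligned reads to GRCm38 with HISAT2 2.2.1, sorted them with SAMtools 1.9 and estimated FPKM with StringTie 2.1.3. The authors deposited these FPKM values and expected counts from tximport; the annotation release was not given in the sources used here. Of the genes above 0, 99.0% matched GENCODE release M21, which supplied coordinates.

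Expected counts were rounded and tested with the Wald test of DESeq2 1.42.0 in R 4.3.3, after the study's methods, with all 9 libraries, group as the only term, median-of-ratios size factors, independent filtering at 0.05 and Benjamini-Hochberg adjustment over all genes. All p-values are two-sided. Intervals are the estimate ± 1.96 SE. The tests were tested on simulated data first. The members and lists were chosen with earlier results of these data known. Named genes were all 10 members, signalling genes and other receptors called in any comparison, the 3 genes of highest r for each called member, and marker genes beside the results they move with; Mmp8, S100a8, S100a9, Fcer1g, Tyrobp, Card9, Bcl10, Malt1 and Inpp5d, and the cluster neighbours Clec4a4, Clec4b1 and Clec4b2, were added. Alternatives used edgeR 4.0.16, limma 3.58.1 on log2(FPKM + 1) or log2(FPKM + 0.1), other scaling, filters and counts, and each library left out. Motifs were searched in RefSeq promoter sequences on both strands.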

Additional observations from a re-analysis of the deposited data

How the results depend on the processing

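The counts of called genes in each list and the fold changes of 35 single genes were recomputed under up to 22 alternatives, fewer where an alternative left a gene out or gave it no adjusted p. Of these 1, independent filtering tuned for 0.1, was chosen after seeing the data and 9 left out 1 library. Of 2280 values of the single genes, 1967 kept their direction and side of the threshold, 235 lost and 38 gained a call and 40 changed sign, with 0 of the last among values called by DESeq2. Of 858 counts over marker lists, recomputed after seeing the data, 158 moved by over 1.5 times. The causes were not tested. Read length, depth and the VanLip group cannot be told apart, and the number of libraries limits what can be called.

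Receptors called for Van against Con numbered 4, and 2 with edgeR's quasi-likelihood test, 7 with only the 2 groups compared and 0 in each of the 3 limma settings (8 at an unadjusted p under 0.05), with 3 to 7 when 1 library was left out, the highest without VanLip 1. For VanLip against Con they numbered 1, and 0 with edgeR (1 at an unadjusted p under 0.05), TMM library sizes (2), only the 2 groups compared (1), no independent filtering (1), counts converted to fragments (1), thinned VanLip fragments (2), the 3 limma settings (2 each) and filtering tuned for 0.1 (1), with 0 to 2 when 1 library was left out, the highest without VanLip 1. For VanLip against Van they numbered 4, with 3 to 4 when 1 library was left out. Over all genes, edgeR called 204, 300 and 855 genes for Van against Con, VanLip against Con and VanLip against Van, and limma with a pseudocount of 1 called 36, 193 and 613, against 803, 1104 and 1777 with DESeq2.

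Signalling genes called for Van against Con numbered 2, and 1 with edgeR and 0 in each limma setting, with 1 to 3 when 1 library was left out. For VanLip against Con they numbered 2, and 0 with edgeR and in each limma setting and 4 with TMM library sizes, with 1 to 2 when 1 library was left out. For VanLip against Van they numbered 6, with 5 to 7. Other C-type lectin receptors called for Van against Con numbered 1, and 2 with only the 2 groups compared and 0 in each limma setting (5, 5 and 4 at an unadjusted p under 0.05), with 1 to 2 when 1 library was left out. For VanLip against Con they numbered 4, and 2 with edgeR and with thinned VanLip fragments and 0 in each limma setting (7 at an unadjusted p under 0.05), with 2 to 4. For VanLip against Van they numbered 2, and 1 with edgeR and in each limma setting, with 1 to 3. By counts per kilobase, 4 receptors kept their place in Con and 6 in VanLip, of 10.

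Same-numbered libraries of different groups did not deviate together (r from -0.06 to 0.12 over 9 pairs), so the replicate number was taken as a name only. With the replicate number as a block, 5 receptors were called for Van against Con in place of 4, with Clec7a gained (DESeq2 adjusted p = 0.00329). In this comparison 3 other C-type lectin receptors were called in place of 1, Clec2i among those gained (0.0494), and the calls of Ccr2 (0.191) and Siglech (0.0964) were lost. For VanLip against Con 1 signalling gene was called in place of 2, and the calls of Tab1 (0.0768), Cd69 (0.0759), Xcr1 (0.0832) and Ngp (0.0520) were lost. For VanLip against Van 5 signalling genes were called in place of 6, and the calls of Lyn (0.0582), Eno3 (0.332) and Siglech (0.0651) were lost. With this block the log2 fold change of Clec5a for Van against Con was -0.00.

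Signs changed as follows, all in values that were not called. In the limma settings with pseudocounts of 1 and 0.1 and with a filter on mean FPKM, Clec5a had -0.14, -0.17 and -0.14 for Van against Con and -0.04 in all for VanLip against Con, and Clec4a1 had -0.00 in all for VanLip against Con. With 1 library left out, the log2 fold changes ranged as follows. For VanLip against Con, -0.56 to 0.05 for Clec4d, -0.06 to 0.21 for Clec4n, -0.04 to 0.09 for Clec4a1, -0.04 to 0.36 for Ccr2, -0.16 to 0.04 for Vcam1, -0.00 to 0.34 for Eno3, -0.29 to 0.13 for Siglech, -0.18 to 0.04 for Clec4b1. For VanLip against Van, -0.19 to 0.03 for Clec4a2, -0.01 to 0.28 for Clec5a, -0.04 to 0.20 for Xcr1, -1.25 to 0.48 for Ngp, -0.05 to 0.08 for Fcer1g. For Van against Con, -0.12 to 0.17 for Clec5a, -0.17 to 0.09 for Mrc1, -0.35 to 0.08 for Cd209a, -0.25 to 0.03 for Cd69.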
